A study of Mus musculus with 6 samples.

Results

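Cultured heart fibroblasts that had received PDGF-DD held less messenger RNA for most enzymes of cholesterol synthesis than cells that had received saline. The genes described here are 32 genes of cholesterol synthesis, uptake and sterol sensing, taken by symbol from the 18059 genes in the tables, and all 32 were measured well enough to be tested. The PDGF-DD libraries come from cells given PDGF-DD for 12 hours, at a dose that the labels state as 20 µM, a concentration so high for a growth factor that the unit is doubtful. The control libraries come from cells given saline, and each group has 3 libraries. PDGF-DD, the growth factor D dimer of the platelet-derived family, signals mainly through the receptor PDGFRβ. All cells were primary cardiac fibroblasts, the connective tissue cells of the heart, from C57BL/6 mice aged 1 to 2 weeks, cultured in DMEM with 15% fetal bovine serum, itself a source of lipoproteins and growth factors. The protocols say that all mice were global PDGF-D knockouts, whereas the genotype field gives PDGF-D -/- for the PDGF-DD libraries and control for the control libraries, so if that field is right, genotype and treatment cannot be told apart. The labels do not say whether separate cultures or animals stand behind the 3 libraries of a group, so the p-values reflect the scatter of these libraries alone, and that scatter may be technical.

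Cholesterol is built from acetyl-CoA. The mevalonate steps make isoprene units and join them to farnesyl diphosphate, the next steps make squalene and close it into lanosterol, and the late steps trim and rearrange lanosterol into cholesterol. When sterols are scarce in the endoplasmic reticulum, the escort protein SCAP carries the SREBP transcription factors to the Golgi, where they are cut and freed to switch on these genes; when sterols are plentiful, INSIG proteins hold SCAP back, and the oxysterol-activated LXR receptors switch on genes of sterol removal. Cells also take up cholesterol as lipoprotein particles, whose cholesteryl esters are split in lysosomes.

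Reads assigned to Pdgfd, the gene deleted in the knockout, numbered 69, 72 and 82 in the PDGF-DD libraries and 118, 114 and 91 in the control libraries. Such whole-gene counts do not show whether the deleted part is missing. Depth was nearly equal, between 21221114 and 21371829 estimated counts per library. PDGF-DD libraries differed from each other by a chi-square of 1.90 to 2.74 per degree of freedom, where 1 is sampling noise. Control replicate 1 stood somewhat apart, at 5.11 and 5.70 from the other control libraries, which differed by 2.48. All 10 fibroblast markers were detected, with a summed level of 45444 to 46284 CPM in PDGF-DD libraries and 50073 to 52077 CPM in control libraries, 6 of them called lower and 2 higher. CPM is a gene's share of the library's counts, scaled up to a common total after TMM adjustment of that total. In sum, markers of other cells were far lower, but the fibroblast sum came mostly from Col1a1, Col1a2, Col3a1 and Vim. Gene by gene the lists overlapped. With PDGF-DD the fibroblast markers Tcf21 and Lum averaged 86.4 and 56.4 CPM, below Tnnt2 (115 CPM), Lyz2 (121 CPM) and Cspg4 (128 CPM). The other fibroblast markers lay above these in the PDGF-DD libraries. The 8 cardiomyocyte markers, mostly Tnnt2, summed to 117 to 132 CPM in PDGF-DD libraries and 162 to 172 CPM in control libraries (3 of 6 tested called lower). Sums of the 7 endothelial markers were 219 to 225 CPM with PDGF-DD and 237 to 254 CPM in control (1 called lower). For 8 macrophage markers, mostly Lyz2, they were 162 to 169 CPM and 179 to 198 CPM in the same order (1 called lower). The 5 mural cell markers, mostly Cspg4, gave 143 to 148 CPM with PDGF-DD and 132 to 147 CPM in control (2 of 4 tested called lower, 1 higher). Of the 2 adipocyte markers in the tables, neither had a read in any PDGF-DD library, and their sum stayed at or below 0.0945 CPM in control. The part of these shifts in the results below was not tested, and in bulk RNA fewer cells of a type and less RNA per cell cannot be told apart.

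Of the 32 sterol genes, 23 were lower with PDGF-DD than in control, 1 was higher and 8 did not pass the test (quasi-likelihood test of edgeR with p-values adjusted by Benjamini-Hochberg over all 13270 genes tested; a gene with an adjusted p under 0.05 is called). Of all tested genes, 17.4% were called lower and 19.1% higher, so the share of members called lower, 71.9%, was above the background and the single rise below it. The members were chosen with earlier results of these data known, so this comparison is a description and not a test. Many called changes in these data were small, and with the added demand of a level at least 20% lower or 25% higher 16 members were lower and none higher, against 8.15% lower and 7.01% higher among all tested genes. The 3 PDGF-DD libraries all lay below the 3 control libraries for 23 members and above them for 1, where 23.5% and 23.6% of all tested genes showed no overlap in these directions. The median log2 fold change of the members was -0.32, beside -0.01 over all tested genes.

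Genes called lower were found at each of the 5 stages. Among the 8 mevalonate genes 6 were called lower, and the median log2 fold change of the 8 was -0.37. All 3 squalene-to-lanosterol genes were called lower, with a median of -0.69. Of the 8 late sterol genes 6 were called lower, with a median of -0.35. Of the sensing genes 4 of 7 were called lower, with a median of -0.30, and for uptake and intracellular handling 4 of 6 were called lower and 1 higher, with a median of -0.18. Taken as 2 blocks, 12 of 19 synthesis genes (63.2%) and 4 of 13 sensing, uptake and handling genes (30.8%) were called with a level at least 20% lower. Whether the blocks or stages differ was not tested, since the genes of a stage are not replicates. None of the 19 synthesis genes of this set was called higher. Among the 48 further pathway genes described below, 15 were called lower and 9 higher. The 9 include the sterol reductase Lbr and the thiolase Acat1 (log2 fold change 0.30 and 0.14).

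**Figure D1:**
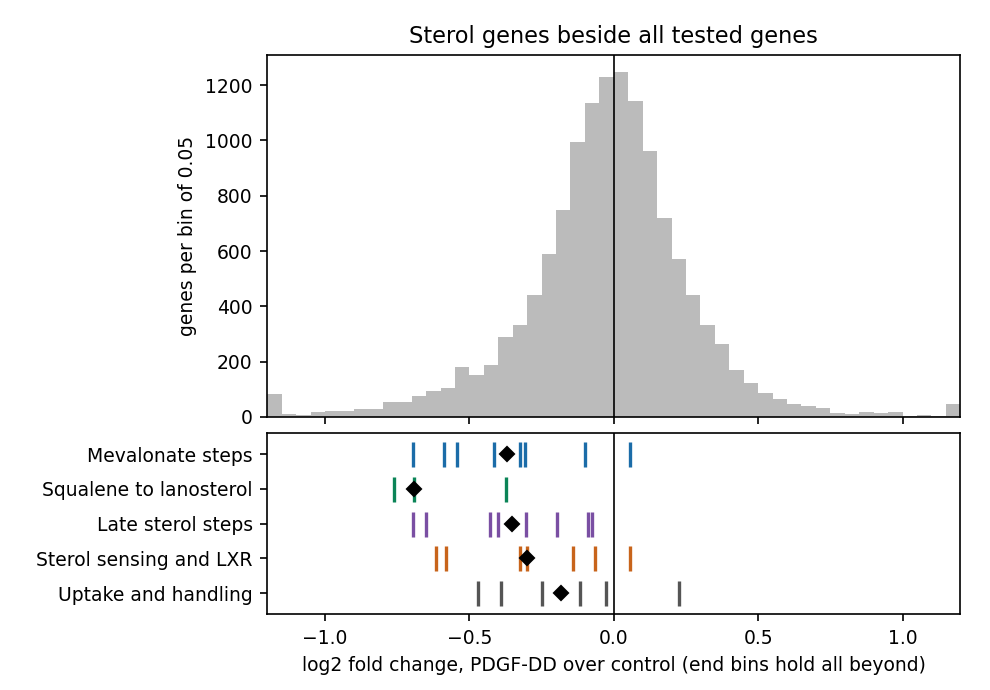
Log2 fold changes (PDGF-DD over control) of all 13270 tested genes (upper panel, genes per bin) and of the 32 sterol genes by stage (lower panel, 1 bar per gene, diamonds mark the median of the stage). All 5 medians lie to the left of 0, from -0.69 for the squalene-to-lanosterol genes to -0.18 for uptake and handling.

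**Figure D2:**
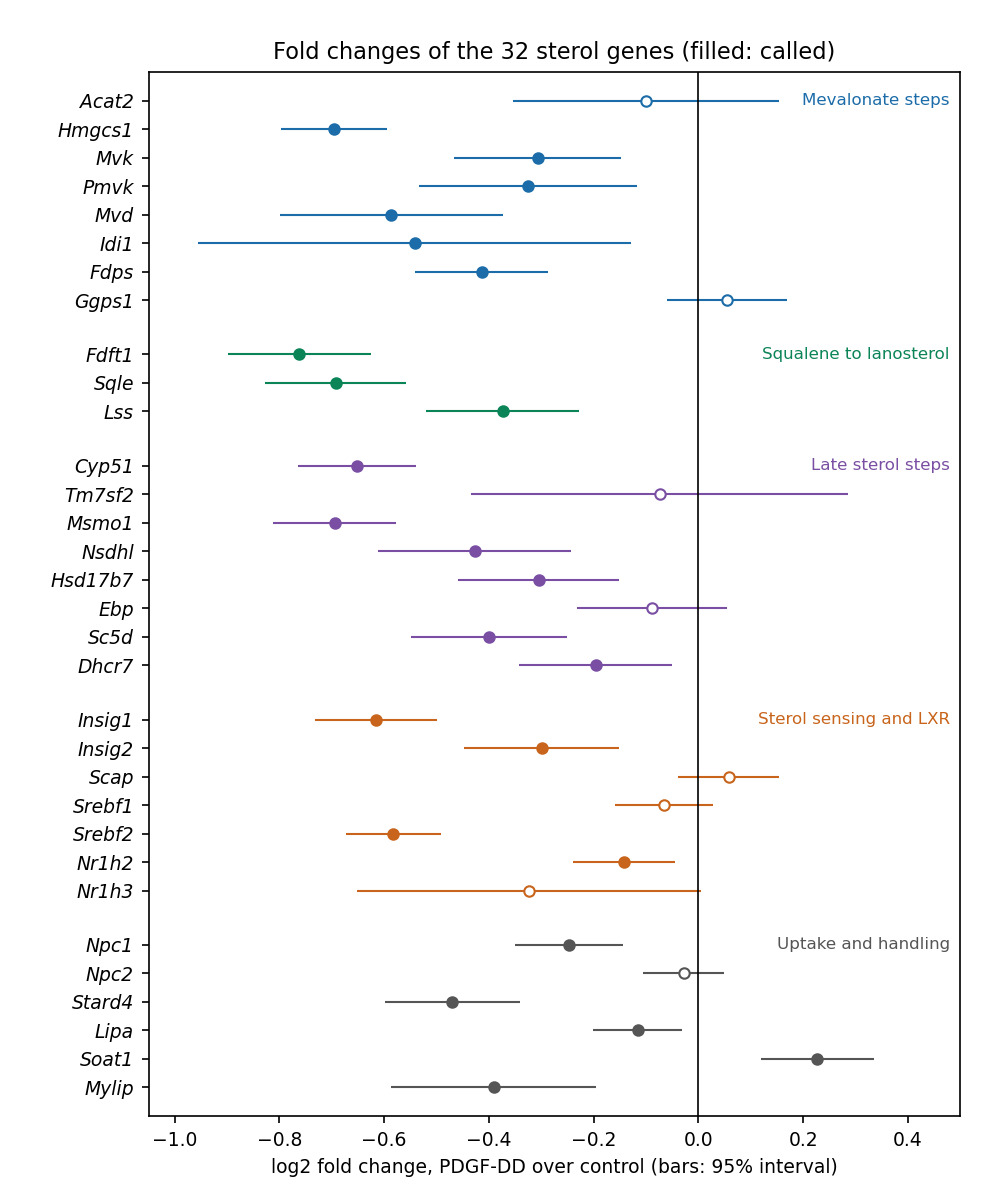
Log2 fold change of each sterol gene, PDGF-DD over control, with its 95% interval, from 3 libraries per group; filled points passed the test and open points did not. Fdft1, Hmgcs1, Msmo1 and Sqle lie farthest to the left, between -0.76 and -0.69, and Soat1 is the filled point to the right of 0.

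The promoters of the genes that moved together are shown next, since SREBP proteins bind a sterol regulatory element and need the neighbouring factors NF-Y and Sp1. RefSeq windows of 250 bases before to 50 after the gene start (build GRCm38.p6, read along the gene) were held for 27 of the 32 members, and not for Fdft1, Sqle, Fdps, Stard4 and Npc1. In each line the capitals mark matches on either strand to the element TCACNCCAC or its shorter form TCACNCCA, and to the NF-Y box CCAAT or its complement. Hmgcs1 (chr13:119690101-119690400, plus strand) is shown because it is the member with the full element. Srebf2 (chr15:82147019-82147318, plus strand) and Msmo1 (chr8:64733529-64733828, minus strand) hold the shorter form. Mvk (chr5:114444019-114444318, plus strand) holds the most NF-Y boxes, 5, and Insig1 (chr5:28071162-28071461, plus strand) is the sensing gene with the largest fall. Acat2 (chr17:12960676-12960975, minus strand), which did not pass the test, holds none of the motifs marked in capitals. It does not stand for all such members: Ggps1 and Ebp did not pass either and hold 3 and 2 NF-Y boxes. Nr1h2, called lower, holds none.
Hmgcs1: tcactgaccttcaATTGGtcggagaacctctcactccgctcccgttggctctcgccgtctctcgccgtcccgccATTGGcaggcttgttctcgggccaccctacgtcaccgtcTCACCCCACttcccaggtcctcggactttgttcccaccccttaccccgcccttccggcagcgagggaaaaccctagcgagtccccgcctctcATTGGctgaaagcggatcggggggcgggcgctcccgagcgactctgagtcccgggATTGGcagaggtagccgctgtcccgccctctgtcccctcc
Srebf2: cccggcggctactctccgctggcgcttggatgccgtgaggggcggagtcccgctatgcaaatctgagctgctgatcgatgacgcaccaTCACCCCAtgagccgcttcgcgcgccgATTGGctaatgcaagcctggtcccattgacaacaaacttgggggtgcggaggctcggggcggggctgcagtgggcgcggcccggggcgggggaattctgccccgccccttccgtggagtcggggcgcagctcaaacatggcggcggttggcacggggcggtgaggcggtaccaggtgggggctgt
Msmo1: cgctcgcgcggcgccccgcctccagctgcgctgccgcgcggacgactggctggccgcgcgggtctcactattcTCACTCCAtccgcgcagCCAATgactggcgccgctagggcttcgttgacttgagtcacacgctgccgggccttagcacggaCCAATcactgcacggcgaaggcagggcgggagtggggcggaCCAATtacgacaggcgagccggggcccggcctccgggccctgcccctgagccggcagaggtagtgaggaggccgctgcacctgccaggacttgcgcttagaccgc
Mvk: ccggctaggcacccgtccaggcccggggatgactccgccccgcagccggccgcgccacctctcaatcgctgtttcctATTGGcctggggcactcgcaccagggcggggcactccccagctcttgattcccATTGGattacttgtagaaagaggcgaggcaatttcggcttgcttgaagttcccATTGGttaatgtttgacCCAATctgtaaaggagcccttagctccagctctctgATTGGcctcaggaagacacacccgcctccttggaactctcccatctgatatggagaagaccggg
Insig1: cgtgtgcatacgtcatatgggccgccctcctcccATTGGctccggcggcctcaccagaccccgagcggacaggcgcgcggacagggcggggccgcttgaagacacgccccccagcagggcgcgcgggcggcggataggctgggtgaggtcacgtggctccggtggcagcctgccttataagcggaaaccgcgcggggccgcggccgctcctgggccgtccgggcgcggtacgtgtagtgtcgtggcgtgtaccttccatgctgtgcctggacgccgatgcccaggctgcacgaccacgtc
Acat2: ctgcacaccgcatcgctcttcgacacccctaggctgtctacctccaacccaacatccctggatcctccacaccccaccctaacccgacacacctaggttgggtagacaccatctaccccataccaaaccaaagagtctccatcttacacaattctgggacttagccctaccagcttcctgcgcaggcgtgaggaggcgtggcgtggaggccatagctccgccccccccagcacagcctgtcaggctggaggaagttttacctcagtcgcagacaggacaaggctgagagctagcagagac

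The element TCACNCCAC was present in 1 of 27 members (3.70%) and in 1.36% of the 10570 tested genes with an entry; in Hmgcs1 it begins at position -137, counted from the gene start with -1 as the base before it. The shorter form, added after these sequences were seen, was present in 3 members, beginning at position -162 in Srebf2 and -177 in Msmo1, and in 4.44% of tested genes. NF-Y boxes were common: 23 of 27 members (85.2%) held CCAAT or its complement, compared with 43.0% of tested genes. Of members called lower 17 of 18 held a box, and of the others 6 of 9. Genes with several start sites have several windows. Counted by window the box was present in 24 of 36 (66.7%) for members and in 37.4% of all windows, here with those of untested genes included. GGGCGG, the Sp1 box, was present in 85.2% of members and 68.0% of tested genes, and the E-box CACGTG in 18.5% and 11.6% in the same order. These are matches of letters in a short window, with no binding measured.

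Among the mevalonate genes, Hmgcs1 (Entrez gene 208715), which encodes the synthase that makes HMG-CoA, fell most. Its level was 35.3, 36.3 and 36.2 CPM in PDGF-DD libraries and 59.4, 57.0 and 58.1 CPM in control libraries, and the groups lay far apart relative to their spread. The means were 35.9 ± 0.56 CPM with PDGF-DD and 58.2 ± 1.2 CPM in control (SD, n = 3 each), and the log2 fold change was -0.70 with an SE of 0.05 (edgeR adjusted p = 2.97e-11). Mvd, the decarboxylase that makes the isoprene unit, stood at 6.05, 5.19 and 5.73 CPM with PDGF-DD and 8.86, 8.55 and 8.08 CPM in control, without overlap (log2 fold change -0.59 with SE 0.10, edgeR adjusted p = 6.29e-05). Fdps, which joins isoprene units to farnesyl diphosphate, stood at 31.6, 34.3 and 36.2 CPM with PDGF-DD and 48.9, 42.1 and 45.1 CPM in control, again without overlap (log2 fold change -0.41, SE 0.06). The kinase genes between them changed less. Mvk, mevalonate kinase, stood at 15.6, 19.3 and 15.8 CPM with PDGF-DD and 21.6, 20.3 and 20.8 CPM in control (log2 fold change -0.31). Pmvk, the next kinase, gave 6.24, 7.34 and 6.43 CPM with PDGF-DD and 8.58, 7.93 and 8.56 CPM in control (log2 fold change -0.32, edgeR adjusted p = 0.0130); this call was lost in DESeq2 (adjusted p = 0.101) and without PDGF-DD replicate 1 (0.0740) or PDGF-DD replicate 3 (0.0624), the range over all alternatives being 0.00205 to 0.101.

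Idi1, the isomerase of the isoprene unit and the least abundant member per length, was uneven. PDGF-DD libraries held 47, 50 and 86 counts and control libraries 85, 78 and 101, so PDGF-DD replicate 3 lay among the control values. Its log2 fold change was -0.54 (SE 0.20, edgeR adjusted p = 0.0387) and -0.86 without PDGF-DD replicate 3. The call was lost without PDGF-DD replicate 1 (adjusted p = 0.170), PDGF-DD replicate 2 (0.177) or control replicate 3 (0.144) and in DESeq2 (0.0913), with a lowest value of 0.000958 under any alternative. The 2 genes of this stage that did not pass lie at its ends. Acat2, the thiolase that joins acetyl-CoA units, had 6.34 ± 0.74 CPM with PDGF-DD and 6.80 ± 1.12 CPM in control (95% interval of the log2 fold change -0.35 to 0.15). In the GENCODE M21 annotation 39.1% of its 50-base words also occur in Acat3, so reads may be shared, although Acat3 held only 4 to 9 counts per library. Ggps1, which diverts farnesyl diphosphate to protein prenylation rather than to sterols, had 39.2 ± 1.02 CPM with PDGF-DD and 37.8 ± 2.31 CPM in control (95% interval -0.06 to 0.17), so a fall of the size seen in Fdps lies outside its interval.

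From squalene to lanosterol every gene fell, without overlap between groups. Fdft1 (Entrez gene 14137), squalene synthase, commits farnesyl diphosphate to sterols and had the largest fall of all members. It stood at 16.6, 15.3 and 15.4 CPM with PDGF-DD and 26.4, 26.8 and 26.9 CPM in control (log2 fold change -0.76 with SE 0.07, edgeR adjusted p = 1.16e-09), and fell by 41.0%. In the annotation 18.3% of its exon bases overlap Ctsb on the other strand, a gene with 743 CPM with PDGF-DD and 749 CPM in control that was not called (edgeR adjusted p = 0.816); the strand setting of the counting is not given, so reads of both cannot be told apart there. Sqle (Entrez gene 20775), squalene epoxidase, the oxygen-using step known as a control point of the pathway, stood at 17.9, 20.3 and 19.0 CPM with PDGF-DD and 31.5, 29.7 and 31.2 CPM in control (log2 fold change -0.69 with SE 0.07, edgeR adjusted p = 4.59e-09). Lss, lanosterol synthase, which closes the rings, changed less, at 14.4, 14.4 and 13.6 CPM with PDGF-DD and 19.0, 18.4 and 17.6 CPM in control (log2 fold change -0.37 with SE 0.07, edgeR adjusted p = 0.000147). Counted per length, the summed level of these 3 genes was 35.2, 34.5 and 35.7 TPM in PDGF-DD libraries and 54.4, 55.0 and 56.4 TPM in control libraries.

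In the late steps Msmo1 and Cyp51, which act on the methyl groups of lanosterol and its products, had the largest falls. Msmo1 (Entrez gene 66234), the sterol methyl oxidase, stood at 28.7, 27 and 25.5 CPM with PDGF-DD and 43.5, 43 and 45 CPM in control (log2 fold change -0.69 with SE 0.06, edgeR adjusted p = 4.47e-10). Cyp51 (Entrez gene 13121), the demethylase that acts on lanosterol itself, stood at 33.8, 30.6 and 30.3 CPM with PDGF-DD and 49.6, 48.8 and 50.4 CPM in control (log2 fold change -0.65 with SE 0.05, edgeR adjusted p = 5.59e-10). For both genes all PDGF-DD values were well below all control values. Nsdhl, the sterol dehydrogenase that works with Msmo1, stood at 9.01, 11.3 and 9.56 CPM with PDGF-DD and 14.1, 12.9 and 13.1 CPM in control (log2 fold change -0.43, SE 0.09). Hsd17b7, the ketosteroid reductase of the same complex, stood at 19.7, 18.2 and 16.9 CPM with PDGF-DD and 24.5, 20.8 and 22.4 CPM in control (log2 fold change -0.31 with SE 0.07, edgeR adjusted p = 0.00201).

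Of the 4 late genes that remain, Sc5d and Dhcr7 were called lower and Ebp and Tm7sf2 did not pass. Sc5d, the desaturase, stood at 19.0, 16.4 and 19.9 CPM with PDGF-DD and 23.9, 24.4 and 24.6 CPM in control, without overlap (log2 fold change -0.40 with SE 0.07, edgeR adjusted p = 8.14e-05). Dhcr7, a reductase that makes cholesterol in the last step, had 15.3 ± 0.36 CPM with PDGF-DD and 17.5 ± 0.89 CPM in control (log2 fold change -0.20 with SE 0.07, edgeR adjusted p = 0.0319). Its groups did not overlap, but the call was lost in DESeq2 (adjusted p = 0.169), with the replicate number as a block (0.0523) and without PDGF-DD replicate 1 (0.0822), 2 (0.117) or 3 (0.0802) or control replicate 2 (0.150) or 3 (0.0634), with a lowest value of 0.0184. Ebp, a sterol isomerase, overlapped, at 26.7 ± 2.64 CPM with PDGF-DD and 28.4 ± 1.51 CPM in control (95% interval of the log2 fold change -0.23 to 0.05). Tm7sf2, a sterol reductase, was among the least abundant members, with 43, 47 and 51 counts in PDGF-DD libraries and 45, 49 and 53 in control libraries, and its wide interval (-0.43 to 0.29) holds falls as large as that of Sc5d.

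**Figure D3:**
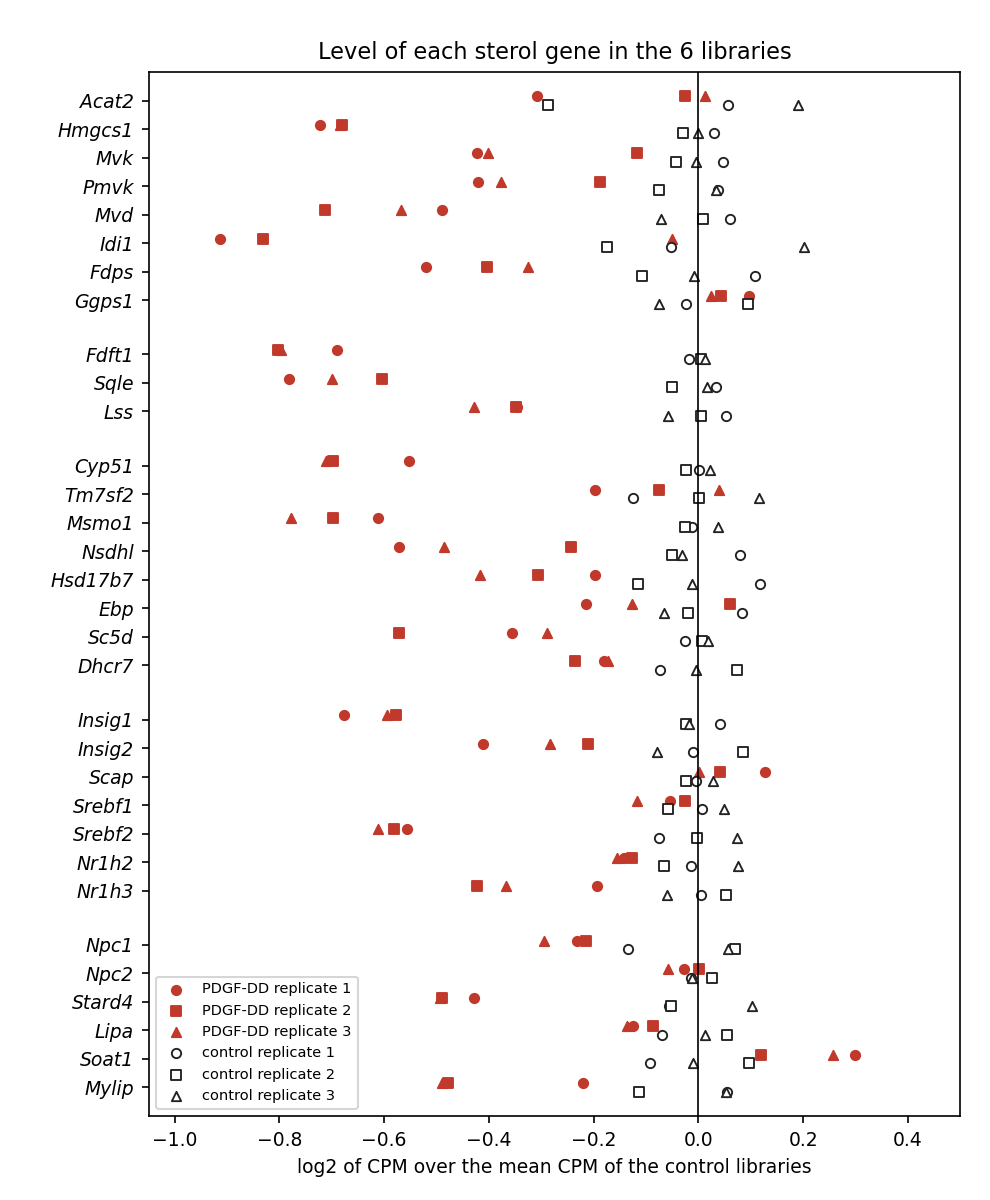
Level of each sterol gene in the 6 libraries, as the log2 of its CPM over the mean CPM of the control libraries; filled red symbols are PDGF-DD libraries, open symbols control libraries, and the shape gives the replicate number. The PDGF-DD symbols form a group to the left of the control symbols for 23 genes, and for Idi1 PDGF-DD replicate 3 lies among the control libraries.

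The libraries within a group were alike over the 19 synthesis genes. The median log2 ratio of these genes to the control mean was -0.42, -0.35 and -0.40 in PDGF-DD replicates 1, 2 and 3, and 0.03, -0.03 and -0.0007 in control replicates 1, 2 and 3. Control replicate 1, which stood apart across all genes, was the highest control library for 12 members and the lowest for 10. Without it, 23 members were called lower and 1 higher, the same numbers as with it. Summed per length over the synthesis genes, PDGF-DD libraries held 332, 339 and 340.0 TPM and control libraries 452, 451 and 463 TPM.

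Among the SREBP genes 1 passed the test and 1 did not. Srebf2 (Entrez gene 20788) encodes the SREBP form that mainly drives cholesterol genes, and stood at 85.9, 84.5 and 82.7 CPM with PDGF-DD and 120, 126 and 133 CPM in control (log2 fold change -0.58 with SE 0.04, edgeR adjusted p = 1.08e-10). Srebf1, whose products mainly drive fatty acid genes, overlapped at 79.4, 81.0 and 75.9 CPM with PDGF-DD and 82.8, 79.1 and 85.3 CPM in control (log2 fold change -0.07, 95% interval -0.16 to 0.03, edgeR adjusted p = 0.282). The difference itself was examined as the log2 ratio of Srebf2 to Srebf1 in each library. It was 0.11, 0.06 and 0.12 in PDGF-DD libraries and 0.54, 0.67 and 0.64 in control libraries. The groups did not overlap, and the mean ratio was lower with PDGF-DD by -0.52 on the log2 scale (exact two-sided permutation test, p = 0.1, which is as low as this design allows).

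Insig1 (Entrez gene 231070), a retention protein for SCAP that is itself an SREBP target, stood at 25.9, 27.8 and 27.4 CPM with PDGF-DD and 42.6, 40.7 and 40.9 CPM in control (log2 fold change -0.62 with SE 0.06, edgeR adjusted p = 2.82e-09). Its paralog Insig2 fell less, at 16.6, 19.1 and 18.1 CPM with PDGF-DD and 21.9, 23.4 and 20.9 CPM in control (log2 fold change -0.30 with SE 0.07, edgeR adjusted p = 0.00163). The log2 ratio of Insig1 to Insig2 was 0.64, 0.54 and 0.60 in PDGF-DD libraries and 0.96, 0.80 and 0.97 in control libraries, a difference of -0.32 without overlap (exact two-sided permutation test, p = 0.1, again the smallest possible). Scap, the sterol-sensing escort, did not pass, with 69.2 ± 3.09 CPM with PDGF-DD and 66.5 ± 1.19 CPM in control and a 95% interval of the log2 fold change of -0.04 to 0.15. A fall of the size seen in Insig1 or Srebf2 lies outside that interval.

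Of the LXR genes 1 passed the test. Nr1h2, which encodes the broadly expressed LXRβ, stood at 61.4, 62.0 and 60.8 CPM with PDGF-DD and 67.1, 64.7 and 71.4 CPM in control (log2 fold change -0.14 with SE 0.05, edgeR adjusted p = 0.0207). This call was lost in DESeq2 (adjusted p = 0.0759) and without PDGF-DD replicate 1 (0.0771), PDGF-DD replicate 3 (0.0953) or control replicate 3 (0.126), with a lowest value of 0.00896. Nr1h3, which encodes LXRα, was scarce, at 2.63, 2.24 and 2.33 CPM with PDGF-DD and 3.02, 3.12 and 2.88 CPM in control. Its groups did not overlap, but it did not pass (log2 fold change -0.32, 95% interval -0.65 to 0.0048, edgeR adjusted p = 0.118). The log2 ratio of Nr1h2 to Nr1h3 was 4.68 ± 0.12 with PDGF-DD and 4.49 ± 0.13 in control (SD, n = 3 each), and its groups overlapped (difference 0.19, exact two-sided permutation test, p = 0.2).

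**Figure D4:**
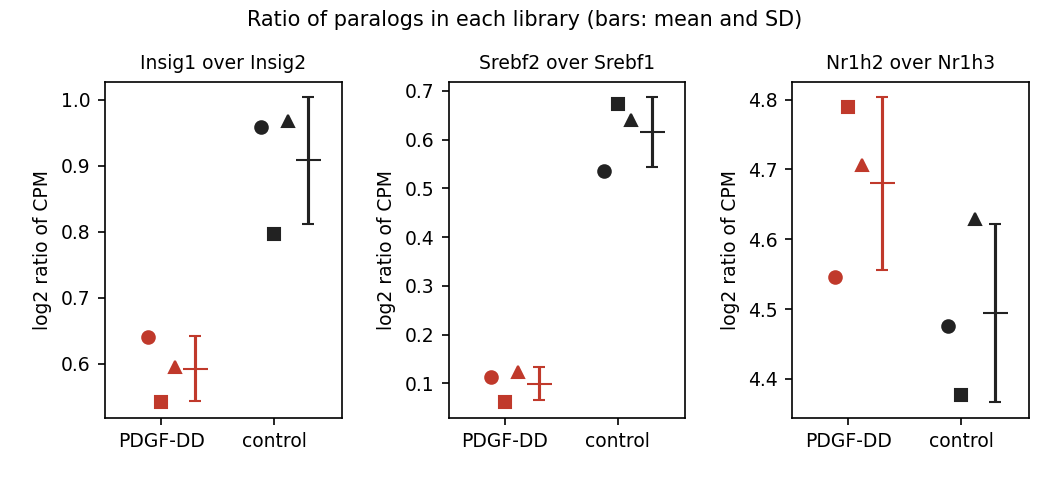
Log2 ratio of CPM between paralogs in each library, PDGF-DD (red) beside control (black), with the mean and SD of 3 libraries; the shape gives the replicate number and each panel has its own vertical scale, which does not start at 0. The groups are apart for Insig1 over Insig2 and for Srebf2 over Srebf1 and overlap for Nr1h2 over Nr1h3.

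Genes of uptake and of cholesterol movement within the cell included 4 called lower and 1 called higher. Stard4 (Entrez gene 170459), a soluble carrier that moves cholesterol between membranes, fell most of them, at 24.6, 23.6 and 23.5 CPM with PDGF-DD and 31.9, 32 and 35.6 CPM in control (log2 fold change -0.47 with SE 0.06, edgeR adjusted p = 1.33e-06). Mylip, a ubiquitin ligase that sends lipoprotein receptors for degradation and is an LXR target, also fell, at 9.38, 7.85 and 7.79 CPM with PDGF-DD and 11.4, 10.1 and 11.3 CPM in control (log2 fold change -0.39 with SE 0.10, edgeR adjusted p = 0.00196). Npc1, the lysosomal membrane protein that exports cholesterol, stood at 91.8, 92.9 and 87.9 CPM with PDGF-DD and 98.3, 113 and 112 CPM in control (log2 fold change -0.25 with SE 0.05, edgeR adjusted p = 0.000337). Npc2, its soluble partner and the most abundant member per length, did not pass, with 271 ± 5.62 CPM with PDGF-DD and 277 ± 4.39 CPM in control (95% interval of the log2 fold change -0.11 to 0.05).

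Lipa, the lysosomal acid lipase that frees cholesterol from lipoprotein esters, had 129.6 ± 2.31 CPM with PDGF-DD and 140.4 ± 6.15 CPM in control (log2 fold change -0.12 with SE 0.04, edgeR adjusted p = 0.0299). Its groups did not overlap. The call was lost in DESeq2 (adjusted p = 0.0737), in limma on TPM (0.0905), with the replicate block (0.0708) and without PDGF-DD replicate 1 (0.120) or 3 (0.143) or control replicate 2 (0.161) or 3 (0.0738), with a lowest value of 0.00434. Soat1 (Entrez gene 20652), the acyltransferase that esterifies cholesterol for storage in droplets, was the member that rose. It stood at 124, 110 and 121 CPM with PDGF-DD and 94.8, 108 and 100 CPM in control (log2 fold change 0.23 with SE 0.05, edgeR adjusted p = 0.00151), so the groups did not overlap but came close, PDGF-DD replicate 2 lying just above control replicate 2. In TPM this order was turned round, with 52.0 TPM in PDGF-DD replicate 2 and 53.2 TPM in control replicate 2, so there the groups overlapped.

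Compared per length, a pair of handling genes were the most abundant of the set. Npc2 averaged 191 ± 2.53 TPM with PDGF-DD and 197 ± 7.81 TPM in control (SD, n = 3 each), and Lipa came next with 101 ± 0.74 TPM and 109.8 ± 7.76 TPM in the same order. Among the synthesis enzymes Fdps was highest, at 63.0 ± 3.61 TPM with PDGF-DD and 84.4 ± 4.31 TPM in control, followed by Msmo1 at 34.2 ± 2.08 TPM and 55.7 ± 2.32 TPM. The scarcest were Idi1, with 2.30 ± 0.81 TPM with PDGF-DD and 3.37 ± 0.48 TPM in control, Nr1h3 with 3.30 ± 0.37 TPM and 4.14 ± 0.09 TPM, and Tm7sf2 with 3.48 ± 0.28 TPM and 3.70 ± 0.40 TPM. By stage, mevalonate genes summed to 155, 164 and 166 TPM in PDGF-DD libraries and 214, 208 and 216 TPM in control libraries, and late sterol genes to 142, 141 and 138 TPM with PDGF-DD and 184, 188 and 191 TPM in control. The sums of uptake and handling genes, 413, 402 and 402 TPM with PDGF-DD and 398, 446 and 435 TPM in control, overlapped.

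Around this set, 48 further genes of the pathway in the tables (sterol branches, SREBP regulators, lipoprotein receptors, sterol carriers, efflux and oxysterol genes) were called lower in 15 cases and higher in 9, with 24 not passing and a median log2 fold change of -0.08. Their share called lower, 31.2%, lay nearer the background than that of the members. The 9 rises among 48 genes were close to the share called higher among all tested genes, 19.1%. Lrp1, a large endocytic lipoprotein receptor and the most abundant of them per length, fell to 1721 ± 33.0 CPM with PDGF-DD, against 2127 ± 111 CPM in control (log2 fold change -0.31 with SE 0.04, edgeR adjusted p = 5.02e-07). Scarb2, a lysosomal membrane protein and the next most abundant, had 453 ± 17.7 CPM with PDGF-DD and 530.1 ± 17.1 CPM in control (log2 fold change -0.23). Among sterol carriers of the list, Gramd1b, which brings cholesterol in from the plasma membrane, had 10.6 ± 0.52 CPM with PDGF-DD and 15.8 ± 1.64 CPM in control (log2 fold change -0.57, edgeR adjusted p = 7.99e-06), and Osbpl5, an oxysterol-binding protein relative, had 121 ± 1.8 CPM and 142 ± 1.2 CPM in the same order. Gramd1b and Osbpl5 were chosen after their values were seen. Gramd1a and Gramd1c were also called lower (log2 fold change -0.22 and -0.72, edgeR adjusted p = 0.000631 and 0.0134). The carriers Osbp, Osbpl2, Stard3 and Stard3nl did not pass (edgeR adjusted p = 0.224, 0.756, 0.606 and 0.849).

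The rises in this wider list included genes that act on the SREBP switch. Ch25h (Entrez gene 12642), which makes an oxysterol that keeps SREBP proteins from being cut, stood at 43.5, 41.2 and 48.0 CPM with PDGF-DD and 32.3, 31.5 and 30.6 CPM in control (log2 fold change 0.49 with SE 0.06, edgeR adjusted p = 2.78e-07). Erlin1, an endoplasmic reticulum protein that binds cholesterol and takes part in holding SREBP proteins back, stood at 54.0, 52.1 and 51.7 CPM with PDGF-DD and 39.9, 41.9 and 37.9 CPM in control (log2 fold change 0.40 with SE 0.05, edgeR adjusted p = 8.52e-07). Pdss1, which uses isoprene units for the tail of coenzyme Q, stood at 7.65, 9.39 and 9.04 CPM with PDGF-DD and 6.08, 6.42 and 4.73 CPM in control (log2 fold change 0.60 with SE 0.12, edgeR adjusted p = 0.000220). None of these 3 genes overlapped between the groups, which their choice by smallest p made likely. Of all tested genes, 23.6% were higher without overlap.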

How the data were processed

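Messenger RNA of mouse cardiac fibroblasts was sequenced in 6 libraries, captured on oligo(dT) beads per the labels' protocols. Per the submitters' processing notes, which give no roles, HISAT2 2.0.4, Bowtie2 2.2.5, RSEM 1.2.12, DESeq2 1.4.5 and build mm9 were used; the annotation, strand setting and filters used are not given there. The authors deposited estimated counts per gene (not normalized; 31.9% to 32.7% of values not whole), TPM (per length, scaled to 1 sum per library) and FPKM (per length and depth, not used here), per the file headers. Reads of overlapping genes and near-identical copies may be shared. By the GENCODE M21 annotation this touches Acat2, Fdft1, Fdps, Ggps1, Hmgcs1, Idi1, Scap and Tm7sf2 (at least 5% of exon bases or 50-base words shared), whose values are uncertain.

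Estimated counts were rounded, filtered with filterByExpr (13270 genes left) and scaled with TMM (factors 0.995 to 1.01). Groups were compared with edgeR 4.0.16 (quasi-likelihood test, robust, two-sided, group only; R 4.3.3), adjusted by Benjamini-Hochberg over all tested genes. The common biological coefficient of variation was 3.96%. Depth of 21221114 to 21371829 counts limits precision mainly for the scarcest members, such as Idi1, Tm7sf2 and Nr1h3. Standard errors are the log2 fold change over the square root of F. Paralog ratios were compared with an exact permutation test (scipy 1.17.1). The method was tested on simulated data. Alternatives were DESeq2 size factors and upper-quartile scaling, no filter or a mean of at least 1 CPM, DESeq2 1.42.0, limma 3.58.1 on log2(TPM + 1), a replicate block and leaving out each library.

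Members, role groups and the list of other genes were chosen with earlier results of these data known, so no p is adjusted over them alone. All members are described, with values per library at least for those called with a level 20% lower or 25% higher and for paralogs. From the 48 other genes found (of 49 listed), the rule names those with the smallest p, 3 called falls and 3 called rises, together with the 2 most abundant; not all genes that it allows are named. Promoters came from a RefSeq table (GRCm38.p6) matched by gene ID. Builds differ, so no other coordinates are given.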

Additional observations from a re-analysis of the deposited data

How the results depend on the processing

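Of the 24 calls among the members, 19 held under all 13 alternatives. The other 5, Pmvk, Idi1, Dhcr7, Nr1h2 and Lipa, are described with their values above, and Nr1h3 passed as lower in limma on log2(TPM + 1) (adjusted p = 0.0475) and in no other alternative. The number of members called lower was 23, between 18 and 23 when 1 library was left out and between 18 and 23 under the other alternatives, and 1 member was higher in each. With a level at least 20% lower the number was 16, with ranges of 15 to 18 and 14 to 18. Over all genes 2310 were lower, between 1611 and 2636 over the alternatives that keep all libraries. Leaving out 1 library moved the median log2 fold change of the sensing genes between -0.34 and -0.24 (main value -0.30). Acat2, not called, changed sign when a library was left out, with values between -0.22 and 0.0049, one being 0.0025 without PDGF-DD replicate 1.

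Same-numbered libraries did not deviate together across genes (correlation -0.07, -0.09 and -0.03 for numbers 1, 2 and 3). This gave no sign of pairing by number but cannot exclude it. Deviations from a mean of 3 libraries hold sampling noise, and the labels do not say what the numbers mean. With the replicate number as a block, 21 members were called lower and 1 higher, and over all genes 2076 were lower and 2269 higher. The ratio of Srebf2 to Srebf1 differed by between -0.56 and -0.49 when 1 library was left out, and that of Insig1 to Insig2 by between -0.37 and -0.29. Precision is limited by depth for Idi1, Tm7sf2 and Nr1h3, which rest on 43 to 101 counts per library. For Idi1 the scatter between PDGF-DD libraries, with 47, 50 and 86 counts, limits precision as well.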
